A study of Drosophila melanogaster with 4 samples.

Results

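Small heat shock genes and cytosolic chaperones were followed in whole *Drosophila melanogaster* larvae mutant for *ash2*, a trithorax group gene whose product takes part in histone methylation, set against larvae of the isogenic wild-type strain. Of 10 listed genes, chosen by the annotated symbol of their probes, 5 had a log2 ratio in both mutant RNA extractions, among 1659 of the 12058 genes with a probe that did. *Hsp26* had values in 1 extraction only, *Hsp68* had a probe without a value on any array, and no probe carried the symbol of *Hsp22*, *Hsp67Bc* or *Hsp83* in the annotation used, so these 3 genes were not analysed here. The list was drawn up with earlier results of these data known. It holds 5 small heat shock genes (*Hsp22*, *Hsp26*, *Hsp27*, *l(2)efl* and *Hsp67Bc*), 3 genes of the Hsp70 family (*Hsp70Bc*, *Hsp68* and *Hsc70-4*), the Hsp90 gene *Hsp83* and the J protein gene *DnaJ-1*.

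The mutant larvae carried the allele *ash2*I1 in the strain written w1118;+;ash2I1 and the wild-type larvae were w1118;+;+, so both shared w1118. Both were whole larvae of the third instar, kept at 25ºC on medium with 0.025% bromophenol blue, a dye that shows the content of the gut and so serves to stage them. According to the methods of the study the stock was balanced over *TM6c*, mutant larvae were picked as Tb+, without the Tubby marker, and chromosomes X, Y and 2 came from the isogenic line, whereas chromosome 3, which carries *ash2* and every listed gene except *l(2)efl*, did not. Mutant RNA came from 2 extractions, each put on 2 arrays (arrays 1 and 2, then 3 and 4) against 1 wild-type pool, and how many animals made up an extraction is not stated.

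Each value is a log2 ratio that likely reads *ash2*I1 over wild type. By the labels Cy5 marked the mutant RNA and Cy3 the pool throughout, and ratios in the software of the authors are by convention Cy5 over Cy3. In addition the study describes *br*, an early ecdysone response gene, as reduced in this mutant, and *br* had a negative value here (-1.04). Without a dye swap, a dye bias of a probe cannot be told apart from a difference between strains. The 4 arrays had values for 2481, 1486, 2448 and 378 genes, and all array pairs correlated positively across probes (r from 0.647 to 0.957). Since both arrays of an extraction received one amplified RNA, their values were averaged to give n = 2. The tests cover no spread beyond that between these 2 extractions. In them limma moderates the spread of each gene towards that of all tested genes, with a prior of 3.16 degrees of freedom. A moderated SE is therefore not the spread of a gene's own 2 values.

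Molecular chaperones hold unfolded proteins and help them to reach their native state. Small heat shock proteins share an alpha-crystallin domain, assemble into oligomers, and bind unfolding clients without using ATP. Hsp70 proteins bind and release clients in a cycle driven by ATP, in which J proteins deliver the client and stimulate hydrolysis, while Hsp90 acts later on a narrower set of clients. In flies most of these genes are induced by heat through the factor Hsf, but several small heat shock genes are also expressed without stress, in part under the moulting hormone ecdysone at the end of larval life, and *Hsc70-4* is a cognate gene expressed throughout development.

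Among the small heat shock genes the fall of *Hsp27*, whose product is found largely in the nucleus, stood out from the other members. Its log2 ratio was -3.63 on array 1, -2.53 on array 2, -2.63 on array 3 and -0.99 on array 4. All 4 arrays were well below 0, with array 1 the lowest and array 4 the nearest to 0. The extractions gave -3.08 and -1.81, and their mean was -2.44 ± 0.34 (moderated SE of limma, n = 2), a 5.44-fold lower level in *ash2*I1 larvae than in the wild-type pool. The 95% interval was -3.36 to -1.52, and the adjusted p was 0.0363 (limma on extraction means, two-sided, Benjamini-Hochberg over the 1659 genes). The SD of its 2 extraction values was 0.90, so the SE, the interval and the p rest in part on the spread of other genes. To be called, a gene had to pass 0.05 after adjustment and to differ 2-fold or more. *Hsp27* was the 1 called gene among the 5 tested members, where this rule called 6.63% of all tested genes, 2.83% as lower and 3.8% as higher in *ash2*I1. Without the limit on the fold it stayed the 1 member to pass, against 10.1% of all tested genes. The call was lost without array 2 (log2 ratio -2.72, adjusted p = 0.0642) and without array 3 (-2.03, adjusted p = 0.162), where 358 genes could be tested.

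The place of *Hsp27* among all genes was low on each array. On array 1 just 0.242% of genes had a lower ratio, on array 2 it was 0.337%, on array 3 it was 0.286% and on array 4 it was 3.17%. Over the 278 genes with a value on all 4 arrays, *Hsp27* was 2nd from the bottom on arrays 1 and 2, 6th on array 3 and 10th on array 4. The ratios of these 278 genes had an SD of 1.13, 0.752, 0.926 and 0.579 on arrays 1 to 4, and array 4, with the ratio of *Hsp27* nearest to 0, was thus the narrowest. In the mean of both extractions it ranked 6th from the bottom of 1659.

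**Figure D1:**
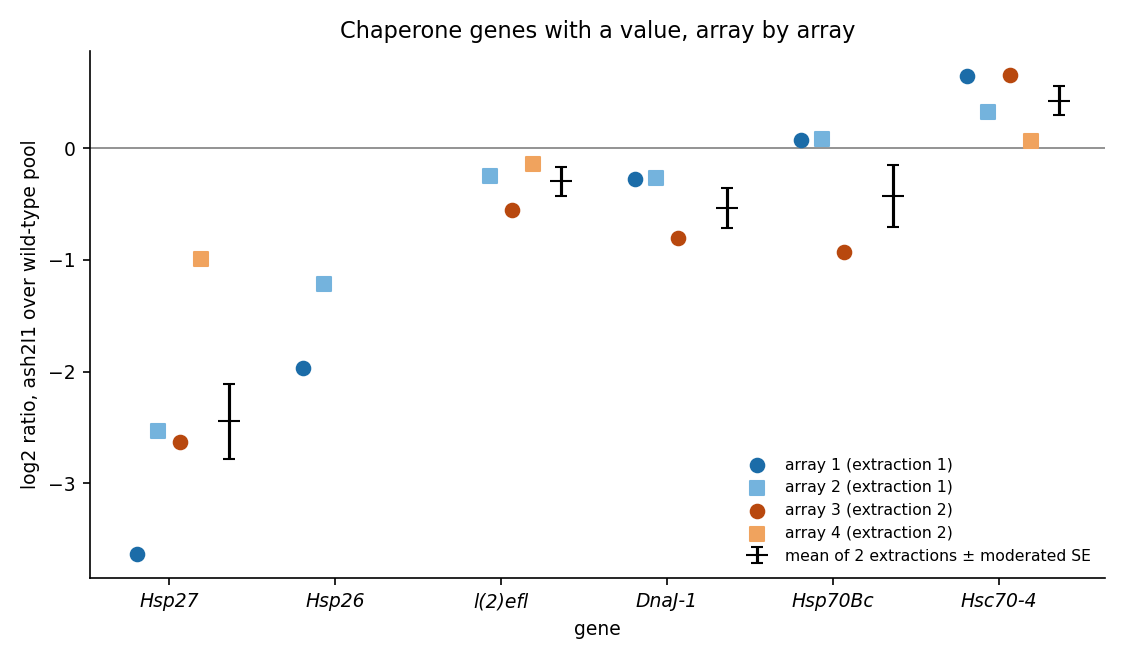
Log2 ratio, likely *ash2*I1 over the wild-type pool, of the 6 chaperone genes with a value, by array; colours mark the extraction, symbols the array, and black bars the mean of 2 extractions with its moderated SE. *Hsp27* spans -3.63 to -0.99 and *Hsp26* lies at -1.97 and -1.22, whereas *Hsc70-4* lies above 0 on all 4 arrays.

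*Hsp26*, which encodes a cytosolic small heat shock protein, was measured in extraction 1 alone and so was not tested. Its log2 ratio was -1.97 on array 1 and -1.22 on array 2, with an extraction value of -1.59. These ratios were low among the genes of their arrays, where 1.45% and 2.83% of genes lay lower. On the same 2 arrays *Hsp27* was lower still, and *Hsp27* minus *Hsp26* was -1.66 and -1.31 log2 units. Both values come from 1 amplified RNA.

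*l(2)efl*, a small heat shock gene that lies on arm 2R, apart from the others, had log2 ratios of -0.25 on array 2, -0.55 on array 3 and -0.14 on array 4, with no value on array 1. The extractions gave -0.25 and -0.34. All 3 values were on the side of 0 seen for *Hsp27*, at a much smaller size, and the mean of -0.30 ± 0.13 (moderated SE, n = 2) did not pass the test (95% interval -0.65 to 0.06, adjusted p = 0.194, limma). Of the genes on these arrays, 27.7%, 10.4% and 32.3% lay lower. *Hsp27* was below *l(2)efl* on each of the 3 arrays that held both, with differences of -2.28, -2.08 and -0.85 log2 units. *Hsp27* and *Hsp26*, the members with the lowest ratios, are both found in the small heat shock locus of arm 3L. The study already reports *Hsp23*, *Hsp26* and *Hsp27* as a cluster reduced in *ash2* mutants. It lists the reduced cluster as running from *Hsp67Bc* to *Hsp27*. The ratios here come from the same arrays and are not independent of that report.

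In the order of genes of assembly Release 6, used here for names and order only, 9 genes run from *Hsp67Bc* to *Hsp27*. Of these 3 had a probe under their symbol and 2, *Hsp26* and *Hsp27*, had a value. *CG4461*, which encodes another small heat shock protein and lies next to *Hsp26*, had a probe without a value. Of the 6 genes on either side of the locus, 4 had a value. *CG4452*, near the *Hsp67Bc* end, had log2 ratios of 0.00, 0.13 and 0.02 on arrays 1 to 3, and *eIF4E1*, a translation initiation factor gene near the *Hsp27* end, had 0.03, 0.00, 0.27 and 0.34 on the 4 arrays. *CG4080* had 0.18 and -0.03 on arrays 1 and 2, and the cuticle protein gene *Cpr67B* had -0.46 on array 2. *CG4452* and *eIF4E1*, the flanking genes measured in both extractions, were thus near 0, with means of 0.04 and 0.16. *CG4080* and *Cpr67B* were measured in extraction 1 only. *Cpr67B* was the farthest below 0, and on array 2 it was lower than *l(2)efl* (-0.25). Elsewhere, the genes immediately beside a member that had a value were *SMC1*, a cohesin gene next to *Hsp68*, with 0.14 on array 1, and *Usp47*, next to *DnaJ-1*, with 0.05 on array 1.

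**Figure D2:**
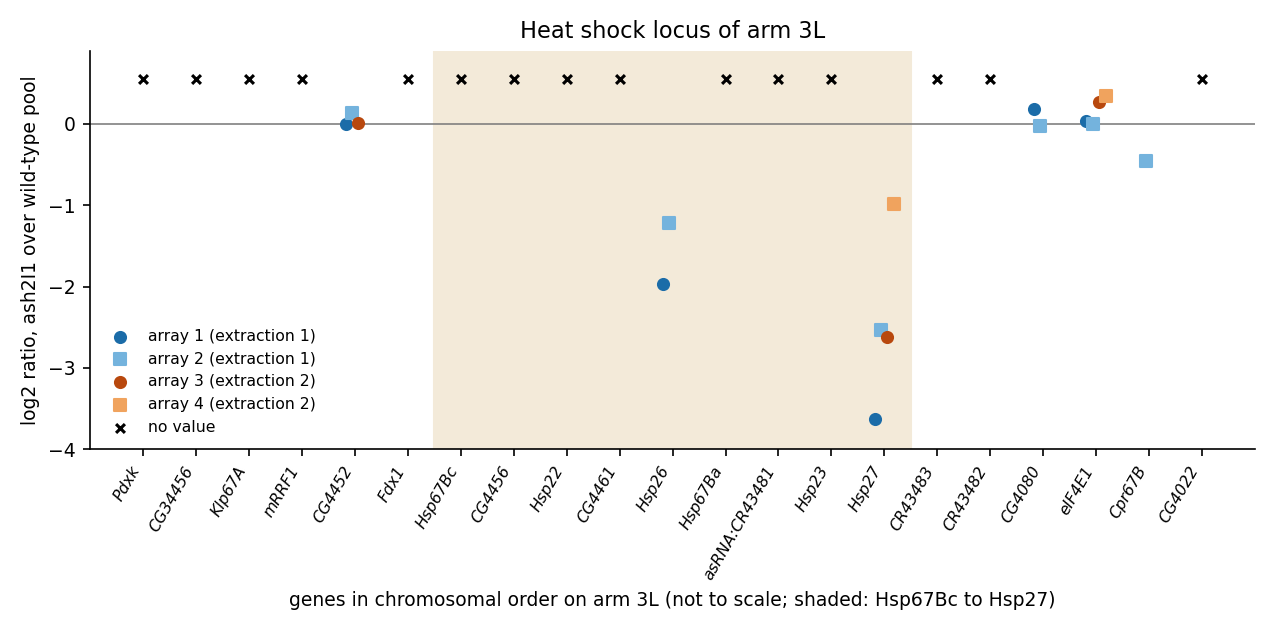
Log2 ratio, likely *ash2*I1 over the wild-type pool, of the genes around the small heat shock locus of arm 3L, in chromosomal order and not to scale, with colours and symbols for the 4 arrays, shading from *Hsp67Bc* to *Hsp27*, and crosses for genes without a value. *Hsp26* and *Hsp27* reach from -3.63 to -0.99, and the 4 flanking genes with a value lie between -0.46 and 0.34.

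The measured Hsp70 genes had no common direction. *Hsc70-4*, the major constitutive cytosolic Hsp70 of the fly, had log2 ratios of 0.65, 0.32, 0.66 and 0.07 on arrays 1 to 4. All were above 0, and as for *Hsp27* the value of array 4 was the nearest to it. The extractions gave 0.48 and 0.36, which differed by less than most genes did, since 28.4% of the tested genes had a smaller gap between extractions. The mean was 0.42 ± 0.13 (moderated SE, n = 2), or 1.34-fold higher in *ash2*I1 larvae. The 95% interval of 0.07 to 0.78 stayed above 0, but after adjustment over all genes the value did not pass (adjusted p = 0.113, limma), and its size is under 2-fold.

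*Hsp70Bc* is one of several nearly identical heat-inducible *Hsp70* copies of arm 3R, so its probes may read other copies as well. It was represented by 17 probes under 1 accession. The mean of its probes was 0.07 on array 1 (SD 0.14 over 16 probes) and 0.08 on array 2 (SD 0.08 over 13 probes), against -0.93 on array 3 (SD 0.07 over 15 probes), and array 4 gave no value. The 2 extractions did not overlap at any probe, since the probes ranged from -0.23 to 0.26 on array 1, from -0.04 to 0.22 on array 2 and from -1.02 to -0.82 on array 3. Probes of 1 array are not replicates of a condition, and extraction 2 rests on array 3 alone. The gap between extractions of 1.00 log2 units was larger than that of 96.6% of the tested genes, whose median gap was 0.226. The mean over both extractions of -0.43 ± 0.28 (moderated SE, n = 2) lies between 2 distant values, and it did not pass the test (95% interval -1.18 to 0.33, adjusted p = 0.337, limma). The probes of the other inducible copies (*Hsp70Ab*, *Hsp70Ba*, *Hsp70Bb* and *Hsp70Bbb*) had no value on any array.

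**Figure D3:**
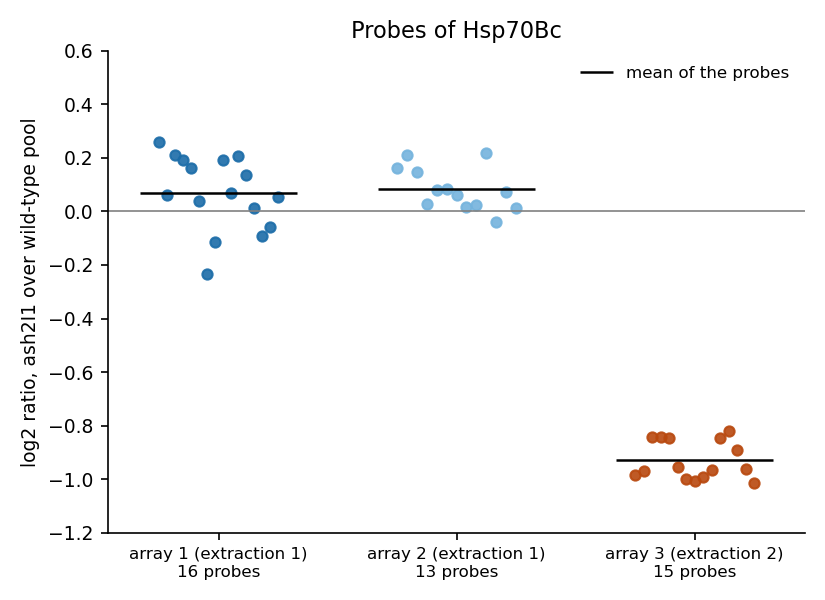
Log2 ratio, likely *ash2*I1 over the wild-type pool, of each probe of *Hsp70Bc* with a value on arrays 1, 2 and 3, with a line at the mean of the probes. Probes of arrays 1 and 2 lie around 0.07 and 0.08, and all 15 probes of array 3 lie between -1.02 and -0.82.

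*DnaJ-1*, a J protein that acts with Hsp70 and is itself induced by heat, had log2 ratios of -0.28 and -0.27 on arrays 1 and 2 and -0.80 on array 3, with none on array 4. Like *Hsp70Bc* it was lower in extraction 2 than in extraction 1, by 0.526 log2 units, a gap larger than that of 83.4% of tested genes. Its mean of -0.54 ± 0.18 (moderated SE, n = 2) did not pass (95% interval -1.03 to -0.04, adjusted p = 0.13, limma). *DnaJ-1* was below *Hsc70-4* on all 3 arrays that held both, with differences of -0.92, -0.59 and -1.46 log2 units.

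The small heat shock genes were then set against the Hsp70 genes within each array, where both ratios come from the same hybridisation. *Hsp27* minus *Hsc70-4* was -4.28, -2.85, -3.28 and -1.06 log2 units on arrays 1 to 4, and *Hsp27* minus *Hsp70Bc* was -3.70, -2.61 and -1.70 on arrays 1 to 3. *Hsp27* was thus the lower gene on every array that held the pair, and its distance to *Hsc70-4* was smallest on array 4. *Hsp26* minus *Hsc70-4* was -2.61 and -1.54 on its 2 arrays, and *Hsp26* minus *Hsp70Bc* was -2.03 and -1.30. *l(2)efl* minus *Hsc70-4* was -0.57, -1.21 and -0.21 on arrays 2 to 4, so that these pairs too lay below 0 throughout. *l(2)efl* minus *Hsp70Bc* was -0.33 on array 2 and 0.38 on array 3. This 0.38 was the 1 value at or above 0 among the 16 array values of the 6 pairs. The pairs share genes, and both arrays of an extraction carry one amplified RNA, so the 16 values are not independent. With *Hsp27* and *l(2)efl* as one class and *Hsc70-4* and *Hsp70Bc* as the other, the small heat shock mean was -1.66 and the Hsp70 mean 0.28 in extraction 1, and -1.08 and -0.28 in extraction 2. In these means *l(2)efl* has no value on array 1 and *Hsp70Bc* none on array 4, so they do not rest on matched arrays. The difference was -1.94 and -0.79, with a mean of -1.37 (SD 0.81, n = 2), where the spread includes this mismatch. With 2 extractions no exact test can reach the threshold, so it is given without one. The class value rests on *Hsp27*: taken singly, *Hsp27* minus the Hsp70 mean was -3.36 and -1.52 in extractions 1 and 2, while *l(2)efl* minus the Hsp70 mean was -0.53 and -0.06. These single values carry the same mismatch. The -0.06 sets *l(2)efl* on arrays 3 and 4 against an Hsp70 mean in which *Hsp70Bc* rests on array 3 alone. *Hsp83* could not enter the comparison.

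**Figure D4:**
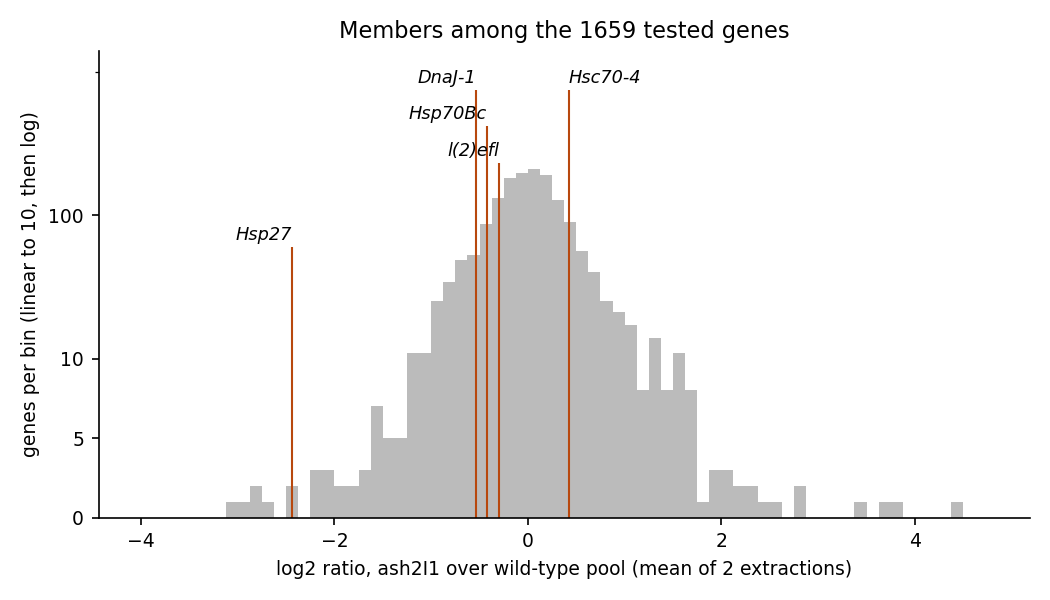
Number of genes per bin of log2 ratio, likely *ash2*I1 over the wild-type pool (mean of 2 extractions), for all 1659 tested genes, on an axis that is linear up to 10 and logarithmic above, with a line at each of the 5 tested members. *Hsp27* lies in the lower tail at -2.44, and the other 4 lie between -0.54 and 0.42.

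The wider set of chaperones was read in the same way. The 8 lists of chaperones and co-chaperones held 96 gene names, some of which may be aliases of one gene. Among them 31 genes were tested, and *Hsp27* was the 1 called gene (3.23%, against 6.63% of all tested genes). Of the 31, 21 had a ratio below 0, with a median of -0.08, while over all tested genes 49.1% were below 0 and the median was 0.01. In the 8 tested J protein genes none rose or fell by the rule. Besides *DnaJ-1*, they included *CG10565* (0.45 ± 0.13), *CG7556* (0.37 ± 0.14) and *DnaJ-H* (-0.36 ± 0.13), each given with its moderated SE over n = 2.

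Of the 6 tested co-chaperones of Hsp70 and Hsp90 none passed, but the pair with the largest ratios lay below 0 in each extraction. *p23*, which encodes a co-chaperone that binds the closed form of Hsp90, had log2 ratios of -1.45, -0.84, -0.51 and -0.31 on the 4 arrays. Its mean was -0.78 ± 0.22 (moderated SE, n = 2, adjusted p = 0.0972, limma), and extraction 1 (-1.15) was lower than extraction 2 (-0.41), as for *Hsp27*. *HIP-R*, a gene of the Hsp70-interacting proteins, had -0.95, -0.64 and -0.60 on arrays 1 to 3, with a mean of -0.69 ± 0.14 (adjusted p = 0.053). The next by size, *mora* (0.13 ± 0.13) and *Sgt* (-0.09 ± 0.14), were near 0.

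The TRiC chaperonin, a ring-shaped complex that folds actin and tubulin, had 7 of 8 subunit genes tested, and none passed. Their log2 ratios ran from -0.43 to 0.11 with a median of -0.21, and 5 of the 7 were below 0. *CCT7* (-0.43 ± 0.17), *CCT5* (-0.34 ± 0.14), *CCT1* (-0.27 ± 0.15) and *CCT2* (-0.21 ± 0.13) had the largest ratios (moderated SE, n = 2). Prefoldin, which hands clients to TRiC, had 4 of 6 subunit genes tested and none passed, with ratios from -0.25 for *Pfdn1* to 0.09 for *Pfdn2*. The single tested gene of the Hsp90 list, *Gp93* of the endoplasmic reticulum, had a ratio of -0.08 ± 0.15. *CG11267*, the fly counterpart of the mitochondrial co-chaperonin Hsp10, had 0.28 and 0.36 on arrays 1 and 2 and -0.70 on array 3, and so differed between extractions in the direction seen for *Hsp70Bc* and *DnaJ-1*. This direction was not general, since 19 of the 31 chaperones were higher in extraction 2 than in extraction 1. Over all tested genes, 835 of 1659 were higher in extraction 1.

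**Figure D5:**
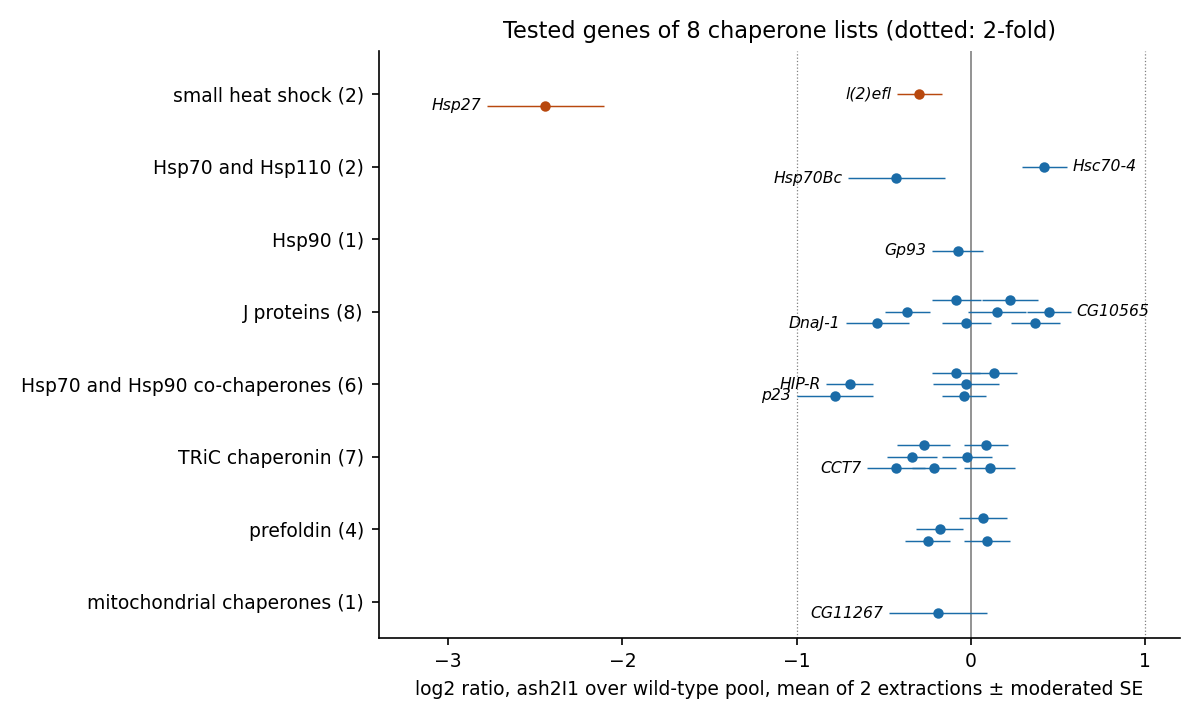
Log2 ratio, likely *ash2*I1 over the wild-type pool, of every tested gene of 8 chaperone lists (mean of 2 extractions, bars show the moderated SE, dotted lines a 2-fold change). *Hsp27* at -2.44 is beyond a 2-fold change, while the other 30 genes lie between -0.78 and 0.45.

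The genes with ratios nearest to those of *Hsp27* were found by the mean absolute difference over the 4 arrays, among the 278 genes present on all of them. They were *CG10570* (0.578 log2 units away), the salivary glue gene *Sgs5bis* (0.642), *CG11912* (0.688) and the ecdysone-induced gene *Eig71Ee* (0.759). *CG10570* had log2 ratios of -3.13, -2.07, -1.55 and -1.27 on arrays 1 to 4. Like *Hsp27* it was lowest on array 1 and highest on array 4, but it was picked for its likeness over these same arrays. *Sgs5bis* had -4.04, -3.04, -3.85 and -1.41, and was below *Hsp27* on every array.

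Lists of stage and tissue markers were read beside the ratio of *Hsp27*. Over all 1659 tested genes the rule called 2.83% as lower and 3.8% as higher in *ash2*I1. Of the 31 ecdysone response genes 7 were tested, with log2 ratios from -1.46 to 0.23 and a median of -0.59, and 3 of them (*br*, *Sox14* and *Fbp1*) fell, none rose and 4 did not pass. Of 12 salivary glue and related genes 6 were tested, with ratios from -3.09 to 0.80 and a median of -1.41. *Sgs5bis* and *Eig71Ee* were lower and 4 did not pass. Of these 4, *Sgs5* (-2.78 ± 0.63) and *Sgs4* (-0.74 ± 0.15) lay below 0, while *ng1* (0.80 ± 0.25) and *ng2* (0.80 ± 0.16) lay above it (moderated SE, n = 2). Of 6 fat body genes 3 were tested, with ratios from -2.11 to 0.01, a median of -1.46, and *Lsp2* and *Fbp1* lower. In the midgut list 7 of 9 were tested, with ratios from -1.85 to 1.97, 4 higher and 1 lower, and in the larval muscle list 5 of 11 were tested, none passed and the median was 0.09. The nervous system list had no tested gene, and ratios in any case do not give the level of a tissue. The part of larval stage or of tissue shares in the ratio of *Hsp27* was not tested, and in RNA of whole larvae fewer cells of a type and less RNA per cell cannot be told apart.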

How the data were processed

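Members and gene lists were chosen with earlier results of these data known. The authors scanned the slides with GenePix Pro, removed spots below quality thresholds, corrected background with normexp, and normalised with OLIN, whose mad method was also used between arrays. The deposited values are these log2 ratios, with removed spots empty. Scale, centring and direction are not written in the table: array medians lay between -0.02 and 0.04, the base and the direction follow the convention of limma, and the direction is called likely. Of 16416 probes, 11601 had no value. Symbols were updated through the Release 6 gene table (gene identifier for 12533 probes, accession for 120, symbol for 21, while 490 kept the older symbol). Probes with several symbols (101) or none (3151) were left out. Probes were averaged per gene and array, then per extraction. The mean ratio was tested against 0 with limma 3.58.1 (R 4.3.3), the pool counting as 1 control sample whose spread is left out. The study fitted arrays, and that fit is an alternative. Named genes were the members, called or otherwise up to 4 largest members of each list, neighbours with a value, and the 4 genes nearest to *Hsp27*. Figures used matplotlib 3.10.9 in Python 3.11.15. The number of arrays limits the precision.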

Additional observations from a re-analysis of the deposited data

How the results depend on the processing

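*Hsp27* stayed called with log2 ratios from -2.47 to -2.44 under the alternatives that kept all 4 arrays (arrays as separate values, extraction as a random block, arrays centred or scaled, 1 probe per gene, genes on all arrays, added probes, robust moderation). Leaving out 1 array gave -2.85 to -2.03 for *Hsp27* and 0 to 1 called members, the call being lost without array 2 (-2.72) and without array 3 (-2.03). Called genes then numbered 0 to 123, against 110 with all arrays: 55 without array 2, and 0 of 358 by limma with array 3 left out, 67 of which passed 0.05 before adjustment. Fewer genes can be tested without array 3, and the cause of the lost calls was not tested. *l(2)efl*, *Hsc70-4*, *Hsp70Bc* and *DnaJ-1* were called under no alternative run for them, although *Hsc70-4*, at 0.42, had an adjusted p of 0.0496 with arrays as separate values. *Hsp70Bc* and *DnaJ-1* could not be tested without array 3, nor *l(2)efl* without array 2, and the class difference lay between -1.70 and -1.19 without array 4 or array 1. The direction of *Hsp70Bc* was not stable, with 0.08 in extraction 1 alone and -0.93 in extraction 2 alone. Over genes on all 4 arrays 49 of 278 were called, with probes of no single gene added 184 of 2312, and with no limit on the fold 168 of 1659. No paired analysis was possible because the labels hold a single group.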

Other observations

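Another 16 chaperone genes had values in 1 extraction only, all between -0.45 and 0.44 on the log2 scale, with 7 below and 8 above 0 on each array that measured them. *Hsc70-5*, the mitochondrial Hsp70, had 0.18 and 0.08 on arrays 1 and 2. *Hsc70-3*, the Hsp70 of the endoplasmic reticulum, had -0.02 and 0.21 on arrays 3 and 4. *Hsp110*, which encodes a nucleotide exchange factor of Hsp70, had -0.40 on array 3, and *STUB1*, a ubiquitin ligase that binds Hsp70 and Hsp90, had -0.45 on array 2. *Hsf*, the gene of the factor that drives the heat response, had -0.11 on array 1.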
